A study of Mus musculus with 24 samples.

Results

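Interferon-stimulated genes are the genes that cells switch on when interferon, or a virus sensed inside the cell, signals to them. They were chosen here as a list of 48 named genes, and all 48 were found among the 43629 genes of the deposited count table. The genes were followed in E0771 cells, a mouse breast adenocarcinoma line, and in MC38 cells, a mouse colon adenocarcinoma line. The study asked how RG6146, an inhibitor of the BET bromodomain proteins that read acetylated chromatin, alters the response of tumour cells to the inflammatory cytokine TNF. Treatment lasted 3 h in each line: the solvent DMSO as control, RG6146 at 2.5 µM, TNF at 10 ng/mL, or TNF and RG6146 together at the same doses, called the combination below. Each of these 8 groups held 3 libraries, and interferon was not among the labelled treatments. The labels name no knockout, transgene or drug shared by all groups, but the growth protocol attached to every sample names an MC38 subline carrying Ova, and the line given in each sample's own labels was followed. All values come from a single line of each tumour type, and nothing in the labels says whether the 3 replicates were separate cultures, so the p-values measure the spread between these libraries, which may be technical.

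Type I interferons bind the receptor made of IFNAR1 and IFNAR2, whose kinases JAK1 and TYK2 phosphorylate transcription factors of the STAT family. Together with IRF9 these form the complex ISGF3, which binds a promoter element called the interferon-stimulated response element (ISRE). Many tumour and tissue cells hold a low, continuous level of this signalling, which keeps interferon-stimulated genes partly expressed without added interferon. The products sense viral RNA (Ddx58, Ifih1, Dhx58), degrade or block it (the OAS and IFIT families, Rsad2), modify proteins with the ubiquitin-like protein ISG15, or damp the pathway (Usp18, which removes ISG15 and inhibits the receptor).

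The ISRE is visible in the promoters of several of these genes. RefSeq promoters of the GRCm38.p6 build were matched for 37 of the 48 genes, and the 250 bases before each gene's start were searched on both strands for the ISRE core, GAAA and, after any 2 bases, GAAA again. The core stood in 14 of those 37 genes (37.8%), against 936 of all 27025 genes with such a window (3.46%). The GAS core TTCNNNGAA, an element of the interferon gamma response, stood in 5 of the 37 (13.5%, against 8.13% of all genes). An NF-kB motif, GGGRNNYYCC, also stood in 5 of 37 (13.5%, against 8.23%). In these motifs R is A or G, Y is C or T and N is any base. A match is a stretch of letters, not a site shown to be bound. Only exact matches were counted, so a window without a match can still hold a similar stretch. The sequences below are shown because the results turn on these genes. They are 3 neighbouring IFIT genes of chromosome 19 that fell with RG6146, the genes Isg15, Bst2 and Rsad2, and Slfn2. Isg15, Bst2 and Rsad2 have an ISRE core and were not called with RG6146 against DMSO in either line. Slfn2 has no ISRE core in its window but moved with both agents. Each runs 5′ to 3′ on the gene's own strand and ends at the base before the start annotated in RefSeq. For Ifit1, Ifit3, Ifit3b and Bst2 no transcript of the GENCODE annotation begins at that start, so distances hold for the RefSeq start. Capitals mark the ISRE core or, where the letters read TTTC, 2 bases and TTTC, its reverse complement.
Ifit1 (chr19:34640639-34640888, plus strand): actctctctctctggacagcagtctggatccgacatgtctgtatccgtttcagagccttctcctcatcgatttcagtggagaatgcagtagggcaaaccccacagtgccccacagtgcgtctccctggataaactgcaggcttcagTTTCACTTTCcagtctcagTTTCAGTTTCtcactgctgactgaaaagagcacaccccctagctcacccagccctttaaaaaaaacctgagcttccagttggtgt
Ifit3 (chr19:34583279-34583528, plus strand): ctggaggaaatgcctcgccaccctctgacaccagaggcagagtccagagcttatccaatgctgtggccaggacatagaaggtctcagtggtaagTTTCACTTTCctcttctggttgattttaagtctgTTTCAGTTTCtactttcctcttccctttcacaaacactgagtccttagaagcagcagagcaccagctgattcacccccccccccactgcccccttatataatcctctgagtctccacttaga
Ifit3b (chr19:34607707-34607956, plus strand): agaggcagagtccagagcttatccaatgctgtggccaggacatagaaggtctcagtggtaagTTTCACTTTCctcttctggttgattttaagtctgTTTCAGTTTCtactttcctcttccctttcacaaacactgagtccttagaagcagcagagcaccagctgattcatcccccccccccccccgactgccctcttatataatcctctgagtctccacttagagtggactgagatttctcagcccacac
Isg15 (chr4:156200819-156201068, minus strand): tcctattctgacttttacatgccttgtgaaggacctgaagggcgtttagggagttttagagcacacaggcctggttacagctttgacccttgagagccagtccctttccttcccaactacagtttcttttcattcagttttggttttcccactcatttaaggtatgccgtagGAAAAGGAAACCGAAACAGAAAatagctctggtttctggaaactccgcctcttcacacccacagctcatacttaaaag
Bst2 (chr8:71537473-71537722, minus strand): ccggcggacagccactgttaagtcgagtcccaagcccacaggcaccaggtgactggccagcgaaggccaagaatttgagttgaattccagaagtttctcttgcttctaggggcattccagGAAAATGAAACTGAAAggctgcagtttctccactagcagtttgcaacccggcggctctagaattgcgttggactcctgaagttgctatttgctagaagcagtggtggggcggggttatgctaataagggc
Rsad2 (chr12:26456453-26456702, minus strand): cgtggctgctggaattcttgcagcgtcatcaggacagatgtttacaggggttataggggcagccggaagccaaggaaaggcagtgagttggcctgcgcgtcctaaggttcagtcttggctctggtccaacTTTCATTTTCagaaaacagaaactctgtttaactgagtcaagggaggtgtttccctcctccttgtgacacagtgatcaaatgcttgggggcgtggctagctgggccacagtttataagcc
Slfn2 (chr11:83064862-83065111, plus strand): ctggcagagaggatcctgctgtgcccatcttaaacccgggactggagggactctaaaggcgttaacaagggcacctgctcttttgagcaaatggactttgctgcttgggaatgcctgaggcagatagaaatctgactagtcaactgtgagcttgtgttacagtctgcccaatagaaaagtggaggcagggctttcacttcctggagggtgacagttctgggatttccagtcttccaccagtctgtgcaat

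In Ifit1 the cores began 104 and 85 bases before the RefSeq start, in Ifit3 156 and 122 bases before it, and in Ifit3b 188 and 154 bases before it. The stretch around both cores reads alike in Ifit3 and Ifit3b, which are neighbouring, closely related genes. Isg15 had 3 overlapping cores, beginning 78, 72 and 66 bases before its start, Bst2 had 2 overlapping cores at 130 and 124 bases, and Rsad2 had 1 core at 120 bases.

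Depth ran from 5392406 to 9673118 counts per library. In 2 libraries, E0771 TNF replicate 2 and MC38 DMSO replicate 2, mitochondrial ribosomal RNA was low (0.376% and 0.609% of counts, against 1.685% to 3.227% elsewhere). MC38 combination replicate 2 stood apart in markers of other cells. There 16 leukocyte markers summed to 202.5 CPM, the count of a gene scaled to library size on one TMM-adjusted scale for all 24 libraries. The remaining 11 libraries of MC38 had sums of 3.86 to 10.71 CPM, and the E0771 libraries 12.89 to 25.43 CPM. In that library 13 of the 16 markers, Ptprc, Lyz2 and Laptm5 among them, exceeded all other MC38 libraries, and Cd79a was at 0. There 9 epithelial markers summed to 8.23 CPM against 0.473 to 1.35 CPM. Of these 9, Cdh1, Epcam and Krt8 exceeded all other MC38 libraries, and 5 were at 0. The sum of 7 endothelial markers was also above the other MC38 libraries (5.18 CPM against at most 2.75). So was that of 8 macrophage markers (4.11 CPM against at most 2.28), though 4 of them were at 0. Fibroblast and breast sums lay below the other MC38 libraries, and the colon sum within their range. MC38 combination replicate 2 had the highest level of the 3 combination libraries for 29 of the 48 interferon-stimulated genes. That was not particular to it. MC38 DMSO replicate 3 led its group for 33 of 47 genes with counts, and E0771 DMSO replicate 1 for 30 of 48. How often this held over all genes was not counted. MC38 combination replicate 2 was the highest of all 12 MC38 libraries for 8 (Bst2, Cmpk2, Ifi44, Oas3, Slfn5, Sp100, Usp18 and Zbp1). Counts of listed genes that rest on E0771 TNF replicate 2, MC38 DMSO replicate 2 or MC38 combination replicate 2 are given below with and without them. One alternative left out MC38 TNF replicate 1 as well, chosen with earlier results of these data known, and the libraries it dropped are named where it is used. Exons of 11 of the 48 genes (Adar, Dhx58, Dtx3l, Eif2ak2, Gbp2, Ifi35, Oasl1, Parp9, Slfn5, Usp18 and Znfx1) overlap an exon of another annotated gene on the opposite strand. Whether the counting used strand is not given in the sources used here, so for these genes reads of the overlapping gene cannot be told apart. Exons of 6 genes (Gbp7, Herc6, Parp14, Rtp4, Sp100 and Uba7) overlap an exon of another annotated gene on the same strand. For those 6, strand would not separate the reads either. Uba7 also shares 29.1% of the 75-base stretches near its 3′ end with Gm20661, the gene it overlaps. The labelled tissue types were weakly marked: 7 colon markers summed to at most 1.06 CPM in MC38, with Cdx2 and Krt20 at 0, while in E0771 Pgr was at 0 and 7 breast markers summed to 14.91 to 19.07 CPM, below the 19.78 to 37.96 CPM of MC38.

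With DMSO alone, interferon-stimulated genes stood far higher in E0771 than in MC38. Of the 48 genes 43 were higher in E0771, 2 were lower and 3 were not called (edgeR's quasi-likelihood test on counts, Benjamini-Hochberg adjusted p under 0.05), where 58.7% of all 14058 genes tested were called, 28.9% higher and 29.9% lower. The median log2 fold change of the 48 genes was 2.17, against 0.00 for all genes tested. Without MC38 DMSO replicate 2 the counts were again 43 and 2, with a median of 1.90. The genes higher in E0771 came from every role group. They included all 4 IFIT genes, all 5 genes of the ISG15 system, all 5 MX and GBP genes and all 4 PARP and DTX3L genes. Also among them were 5 of 6 oligoadenylate synthetase genes and 5 of 6 RNA sensors and double-stranded RNA enzymes. Oas1b and Mx2, counted in these groups, are annotated as polymorphic pseudogenes. The 2 lower in E0771 were Ifi27, which encodes a small mitochondrial protein, and the Schlafen gene Slfn8.

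Cmpk2, a mitochondrial nucleotide kinase gene, had 146.5, 129 and 140.9 CPM in the 3 E0771 DMSO libraries and 5.03, 6.23 and 9.65 CPM in those of MC38, and the log2 fold change was 4.31 ± 0.32 (SE, adjusted p = 8.56e-11). Usp18 had 146.4, 114.4 and 119.6 CPM in E0771 and 5.21, 7.51 and 9.80 CPM in MC38 (4.06 ± 0.23, adjusted p = 1.04e-12). Ifit1, whose product binds viral RNA lacking a cap methyl mark, had 163.5, 150 and 149.7 CPM in E0771 and 12.04, 10.97 and 13.12 CPM in MC38, a fold of 12.9. In each of these genes the lowest E0771 library lay far above the highest MC38 library. Rsad2, the gene of the antiviral enzyme viperin, stood at 733 ± 4 CPM (SD, n = 3) in E0771 and 62.0 ± 14.1 CPM in MC38, a fold of 11.8. Isg15 stood at 362 ± 31 and 74.2 ± 11.9 CPM, and Bst2, the gene of the virion-retaining protein tetherin, at 553 ± 84 and 71.0 ± 16.9 CPM. The RNA sensors were closer together: Ddx58, which encodes RIG-I, had 91.44, 94.67 and 101.1 CPM in E0771 and 58.93, 47.06 and 64.86 CPM in MC38 (log2 fold change 0.75 ± 0.12, adjusted p = 1.49e-05). Dhx58, Oas2 and Znfx1 were the 3 genes not called, with log2 fold changes of 0.32, 0.69 and 0.04 and adjusted p = 0.116, 0.0514 and 0.883.

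**Figure D1:**
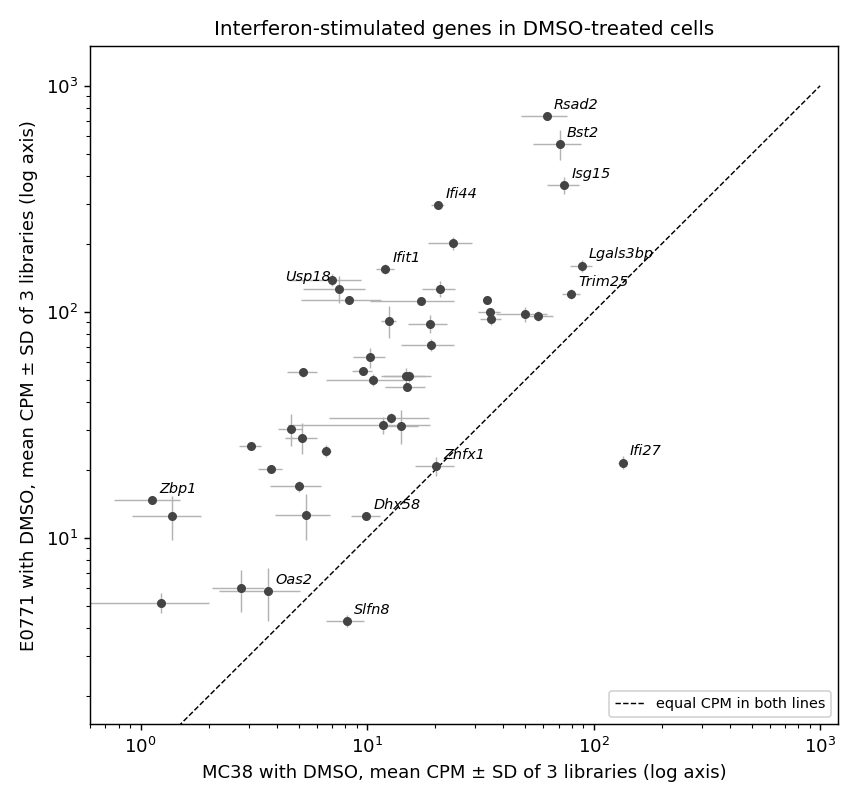
Mean CPM of each interferon-stimulated gene with DMSO in E0771 (vertical, log axis) against MC38 (horizontal, log axis), with bars for the SD of 3 libraries. Slfn5, at 0 in MC38, is not drawn, and most points lie above the dashed line of equal levels, with Ifi27 and Slfn8 below it.

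Ifi27 ran the other way, with 19.94, 22.29 and 22.46 CPM in E0771 and 127.2, 135.4 and 140.4 CPM in MC38 (log2 fold change -2.64 ± 0.14, adjusted p = 3.29e-13). Slfn8 had 4.14, 4.16 and 4.59 CPM in E0771 and 8.44, 6.43 and 9.50 CPM in MC38 (-0.91 ± 0.34, adjusted p = 0.0265), and 14.3% of the 75-base stretches near its 3′ end also occur in Slfn9 or a Schlafen pseudogene, so its counts are uncertain. Its neighbour Slfn5 had counts in all E0771 libraries and none in 11 of the 12 MC38 libraries. The 3 MC38 counts of Slfn5 all fell in combination replicate 2, the library with leukocyte markers. Against a floor of 3 counts over the MC38 DMSO libraries, Slfn5 was at least 29.2-fold higher in E0771 with DMSO. The median of 2.17 was the same with Slfn5 placed at that bound. Zbp1, the gene of a sensor of Z-form nucleic acid, had 14.57, 14.77 and 14.63 CPM in E0771 and 1.08, 0.791 and 1.51 CPM in MC38.

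RG6146 alone lowered a subset of interferon-stimulated genes in both lines and raised none to the test's threshold. In E0771 17 of 48 fell and 31 were not called, where 10.8% of all 12541 genes tested were called and 6.86% were called lower. In MC38 9 of the 45 tested fell and 36 were not called, where 8.27% of all 13272 genes tested were called and 4.91% were called lower. The median log2 fold change of the listed genes was -0.40 in E0771 and -0.49 in MC38, against 0.00 and -0.01 for all genes tested. Without E0771 TNF replicate 2, which belongs to neither group compared, 27 fell in E0771. In MC38 11 fell without DMSO replicate 2, and 15 without DMSO replicate 2, TNF replicate 1 and combination replicate 2 together. The MC38 count fell to 5, 2 and 4 when RG6146 replicate 1, 2 or 3 was left out. Of the 9, Slfn2 alone kept its MC38 call in all 14 alternative settings. Zbp1, Mx1 and Slfn5 had too few counts to be tested in MC38. The 7 genes lower in both lines were Rtp4, Slfn2, Ifit3, Ifit3b, Dtx3l, Parp14 and Oasl1, which are 41.2% of the 17 and 77.8% of the 9. Over all genes tested in both lines the corresponding shares were 32.4% and 51.7%.

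Rtp4, which encodes a chaperone of cell-surface receptors that also restricts RNA viruses, fell most in E0771. Its levels were 139, 121.7 and 119.4 CPM with DMSO and 32.4, 31.47 and 31.51 CPM with RG6146, so that the groups were far apart (log2 fold change -1.98 ± 0.15, adjusted p = 1.82e-06, to 0.254 times the DMSO level). In MC38 it went from 16.89, 22.94 and 22.93 CPM to 10.36, 11.61 and 10.76 CPM (-0.97 ± 0.22, adjusted p = 0.0157), a call lost without DMSO replicate 2 or any of the 3 RG6146 libraries. Slfn2, a Schlafen gene needed for the quiescence of immune cells, fell to 0.329 times its DMSO level in E0771 and 0.337 times in MC38. It had 113.2, 111.6 and 110.6 CPM with DMSO and 36.54, 34.59 and 38.24 CPM with RG6146 in E0771 (-1.60 ± 0.14, adjusted p = 7.45e-06). In MC38 it had 13.65, 12.85 and 25.19 CPM with DMSO and 6.82, 6.11 and 4.65 CPM with RG6146 (-1.57 ± 0.26, adjusted p = 0.00239). One of the 3 MC38 DMSO libraries was higher than its partners, and the groups did not overlap in either line.

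Among the IFIT genes, 3 of 4 fell in E0771 (Ifit1, Ifit3 and Ifit3b) and 2 of 4 in MC38 (Ifit3 and Ifit3b). Ifit1 had the DMSO levels given above and 82.26, 78.76 and 78.08 CPM with RG6146 in E0771 (log2 fold change -0.94 ± 0.12, adjusted p = 0.000185). In MC38 it had 10.62, 9.04 and 9.57 CPM with RG6146, a difference that did not pass the test (-0.33, adjusted p = 0.456). Ifit3 had 96.66, 80.3 and 88.81 CPM with DMSO and 42.66, 45.27 and 42.31 CPM with RG6146 in E0771 (-1.01 ± 0.13, adjusted p = 0.000201). In MC38 it went from 18.86, 15.13 and 22.63 CPM to 8.39, 6.11 and 9.17 CPM (-1.28 ± 0.31, adjusted p = 0.0229), a call lost on leaving out any of the 6 libraries compared other than DMSO replicate 2. Ifit3b went from 24.24, 25.65 and 22.8 CPM to 10.26, 11.96 and 11.51 CPM in E0771 (-1.09 ± 0.17, adjusted p = 0.000983), and from 6.65, 6.23 and 6.94 CPM to 3.28, 2.32 and 2.79 CPM in MC38 (-1.26 ± 0.25, adjusted p = 0.00775). Every RG6146 library lay below every DMSO library for both genes in both lines. Of the 75-base stretches near the 3′ end of Ifit3, 9.86% also occur in Ifit3b, so part of the counts could be shared between them. Ifit2, the remaining IFIT gene, had log2 fold changes of -0.65 in E0771 and -0.68 in MC38 and was called in neither line.

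The RNA sensors and double-stranded RNA enzymes fell in part. Ddx58 had 63.54, 55.94 and 56.83 CPM with RG6146 in E0771, all below the DMSO values given above (log2 fold change -0.69 ± 0.10, adjusted p = 0.000585), and 45.51, 45.7 and 47.97 CPM in MC38, where it was not called. Ifih1, which encodes the sensor MDA5, went from 54.92, 51.7 and 49.34 CPM to 32.94, 30.18 and 29.92 CPM in E0771 (-0.73 ± 0.16, adjusted p = 0.00777). In MC38 its DMSO libraries (14.37, 12.06 and 19.46 CPM) and RG6146 libraries (17.84, 12.71 and 11.03 CPM) overlapped. Dhx58, which encodes the related protein LGP2, fell in MC38 from 9.70, 11.47 and 8.60 CPM to 5.51, 5.13 and 5.71 CPM (-0.89 ± 0.19, adjusted p = 0.0118) and was not called in E0771, where it went from 12.89, 12.35 and 12.25 CPM to 10.08, 10.86 and 7.97 CPM. Adar, the RNA-editing enzyme that masks a cell's own double-stranded RNA, fell in E0771 (-0.40 ± 0.10, adjusted p = 0.0163, lost in 5 of 14 alternative settings) and was not called in MC38. The double-stranded RNA kinase gene Eif2ak2 was not called in E0771, although its values, 75.48, 72.11 and 66.52 CPM with DMSO and 50.58, 53.18 and 55.94 CPM with RG6146, did not overlap (-0.41, adjusted p = 0.0686).

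In the oligoadenylate synthetase family the calls fell on the OAS-like genes. Oasl1, which has been described as a translational repressor of Irf7, went from 26.85, 24.84 and 25.01 CPM to 13.68, 15.46 and 14.52 CPM in E0771 (log2 fold change -0.80 ± 0.18, adjusted p = 0.0110), and from 2.88, 2.87 and 3.47 CPM to 1.05, 0.855 and 0.664 CPM in MC38 (-1.84 ± 0.42, adjusted p = 0.0150). The groups were separate in both lines, at low counts in MC38, where the call was lost without RG6146 replicate 2 or 3. Oasl2 also fell in E0771 (-0.74 ± 0.12), and Oas1a, Oas1b, Oas2 and Oas3 were called in neither line. Oas1a shares 46.0% of the 75-base stretches near its 3′ end with Oas1g, so its counts are uncertain.

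Of the ISG15 system Usp18 alone was called, in E0771, where it had 67.14, 73.42 and 76.66 CPM with RG6146 (log2 fold change -0.79 ± 0.11, adjusted p = 0.000319). Isg15 itself had 378.3, 382.3 and 326.7 CPM with DMSO and 306.2, 303.3 and 289.3 CPM with RG6146 in E0771 (-0.26, adjusted p = 0.200). Those groups did not overlap, and Isg15 was called lower when the 6 libraries compared were fitted alone (adjusted p = 0.0142). In MC38 its DMSO libraries (75.1, 85.52 and 61.84 CPM) and RG6146 libraries (78.03, 58.41 and 61.93 CPM) overlapped. Of the PARP and DTX3L genes, Dtx3l and Parp14 fell in both lines. Dtx3l, a ubiquitin ligase gene, went from 98.5, 90.51 and 89.32 CPM to 43.56, 44.72 and 49.22 CPM in E0771 (-1.003 ± 0.106, adjusted p = 4.28e-05) and from 31.26, 35.79 and 38.46 CPM to 22.29, 22.85 and 21.26 CPM in MC38 (-0.69 ± 0.15, adjusted p = 0.0108). Parp14, an ADP-ribosyltransferase gene, went from 56.92, 50.76 and 48.32 CPM to 27, 33.49 and 32.75 CPM in E0771 (-0.73 ± 0.15, adjusted p = 0.00467) and from 13.65, 12.65 and 18.4 CPM to 6.56, 6.35 and 8.37 CPM in MC38 (-1.09 ± 0.23, adjusted p = 0.0104). For both genes no RG6146 library reached the lowest DMSO library. In MC38 the Dtx3l call was lost without RG6146 replicate 3, and the Parp14 call without RG6146 replicate 1 or 2. The exon that overlaps Dtx3l on the opposite strand belongs to Parp9.

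The remaining calls in E0771 were Gbp7, Cmpk2, Ifi44 and Sp100, with log2 fold changes of -0.58, -0.42, -0.28 and -0.38. Of 14 alternative settings the call was lost in 9 for Ifi44 and in 8 for Sp100, the replicate block among them for both. The remaining call in MC38 was Parp12 (-0.57), lost in 6 of 14 settings. Bst2, with an ISRE core in its promoter, was among the genes not called: it had 632.1, 562.5 and 464.3 CPM with DMSO and 561.6, 661.2 and 579.5 CPM with RG6146 in E0771 (0.13, adjusted p = 0.680). Zbp1, at 11.34, 18.22 and 14.87 CPM with RG6146 in E0771, also overlapped its DMSO values. Rsad2 was not called in either line, at 608.8, 634.3 and 615.7 CPM with RG6146 against 737.8, 731.2 and 730.7 CPM with DMSO in E0771, separate groups (-0.23), and with overlapping groups in MC38 (-0.11). Genes with and without an ISRE core were both among those that fell. In E0771 4 of the 14 genes with the core were called lower, with a median log2 fold change of -0.31, against 10 of the 23 genes with a window but no core, with a median of -0.40. The 23 lack an exact match only. Similar stretches were not searched for, so these genes cannot be taken as lacking an ISRE.

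**Figure D2:**
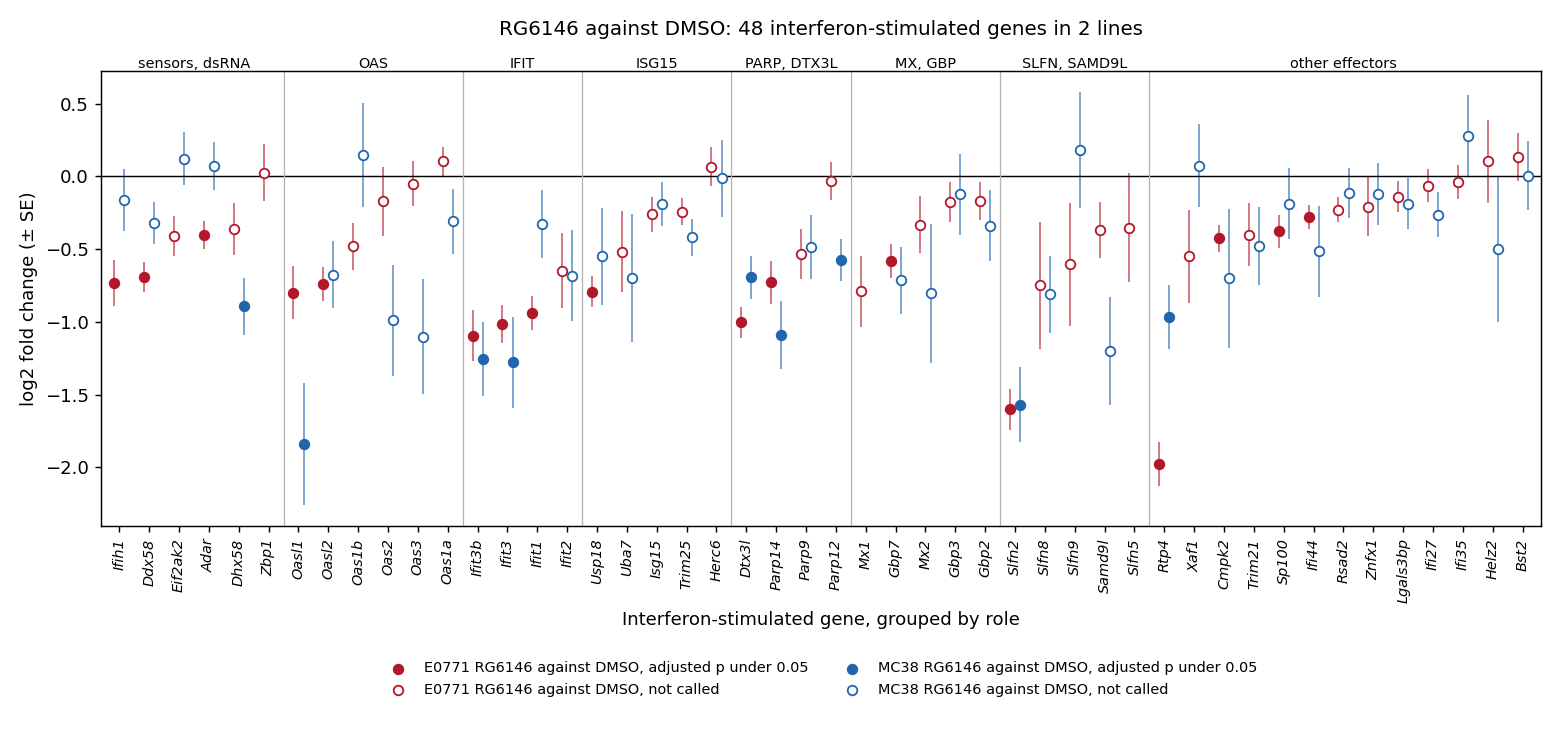
Log2 fold change of each listed gene with RG6146 against DMSO, with bars for the SE, in E0771 (red) and MC38 (blue), grouped by role and ordered within each role by the E0771 value. Filled points were called, all of them below 0, and Rtp4 and Slfn2 lie lowest in E0771 at -1.98 and -1.60.

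TNF alone changed few interferon-stimulated genes at 3 h. In E0771 3 of 48 rose (Gbp2, Slfn2 and Parp14) and none fell, where 2.32% of all genes tested were called and 1.88% were called higher. Without E0771 TNF replicate 2, 3 rose and 1 fell, Oas1b (log2 fold change -0.66, adjusted p = 0.0289). In MC38 2 of 45 rose (Slfn2 and Rsad2) and none fell, where 1.09% were called and 1.02% were called higher. The median log2 fold change of the listed genes was -0.07 in E0771 and 0.20 in MC38. With all libraries the IFIT genes, the oligoadenylate synthetases, the ISG15 system and the RNA sensors had no call in either line.

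Slfn2 rose in both lines. With TNF it had 234.1, 179.6 and 272.4 CPM in E0771 (log2 fold change 1.002 ± 0.130, adjusted p = 0.000338) and 67.9, 85.34 and 98.16 CPM in MC38 (2.29 ± 0.23, adjusted p = 8.98e-05, or 4.91 times the DMSO level). All TNF libraries exceeded all DMSO libraries of their line. The RefSeq window of Slfn2 shown above held no ISRE core and no exact match to the NF-kB motif searched for. It did hold gggatttcca near its end, which differs from that motif at the last base only. Whether that stretch is bound was not tested. Gbp2, which encodes a guanylate-binding GTPase that attacks intracellular microbes, went from 17.64, 15.85 and 17.35 CPM to 30.82, 38.83 and 35.33 CPM in E0771 (1.01 ± 0.12, adjusted p = 0.000168). In MC38 it went from 6.29, 3.76 and 4.98 CPM to 9.29, 9.79 and 8.80 CPM, which did not overlap but did not pass the test (0.92, adjusted p = 0.0829). Parp14 had 89.72, 71.14 and 105.2 CPM with TNF in E0771 (0.74 ± 0.14, adjusted p = 0.00806) and 24.42, 27.3 and 30.04 CPM in MC38 (0.88, adjusted p = 0.0808). Again the MC38 groups were separate without passing the test, and in MC38 Gbp2 and Parp14 were called by DESeq2. Rsad2 had 122.1, 98.44 and 117.9 CPM with TNF in MC38, against 55.69, 52.2 and 78.13 CPM with DMSO (0.87 ± 0.17, adjusted p = 0.0219). This call was lost without MC38 DMSO replicate 2 (1 gene called) as well as without 3 other single libraries. In E0771 Rsad2 had 849.9, 748.8 and 802.1 CPM with TNF and was not called.

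Other genes that RG6146 lowered were not called with TNF. Ifit1 had 151.5, 152.6 and 109.9 CPM with TNF in E0771 (log2 fold change -0.19) and 19.06, 18.61 and 15.78 CPM in MC38 (0.58, adjusted p = 0.308). Ifit3 had 80.72, 119.3 and 85.72 CPM in E0771 and 13.23, 13.96 and 17.9 CPM in MC38. Rtp4 had 110.6, 152.8 and 102.6 CPM in E0771 (-0.08) and 34.98, 30.12 and 32.62 CPM in MC38 (0.64), where the TNF libraries exceeded the DMSO libraries without passing the test. Usp18 had 97.5, 117.8 and 110.1 CPM in E0771 and 4.73, 5.39 and 5.92 CPM in MC38. In E0771 TNF replicate 2, the library low in mitochondrial ribosomal RNA, several genes stood apart from both partners. There Ifit2 had 17.18 CPM against 39.13 and 44.44, Slfn9 had 5.96 CPM against 28.09 and 42.02, and Xaf1 had 15.58 CPM against 48.68 and 58.94. MC38 DMSO replicate 2, the other such library, was low in the same 3 genes, with 6.03 CPM of Ifit2 against 14.73 and 17.65, 3.36 CPM of Slfn9 against 15.63 and 16.29, and 6.03 CPM of Xaf1 against 13.47 and 12.22. The part of the low mitochondrial ribosomal RNA in these values was not tested.

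**Figure D3:**
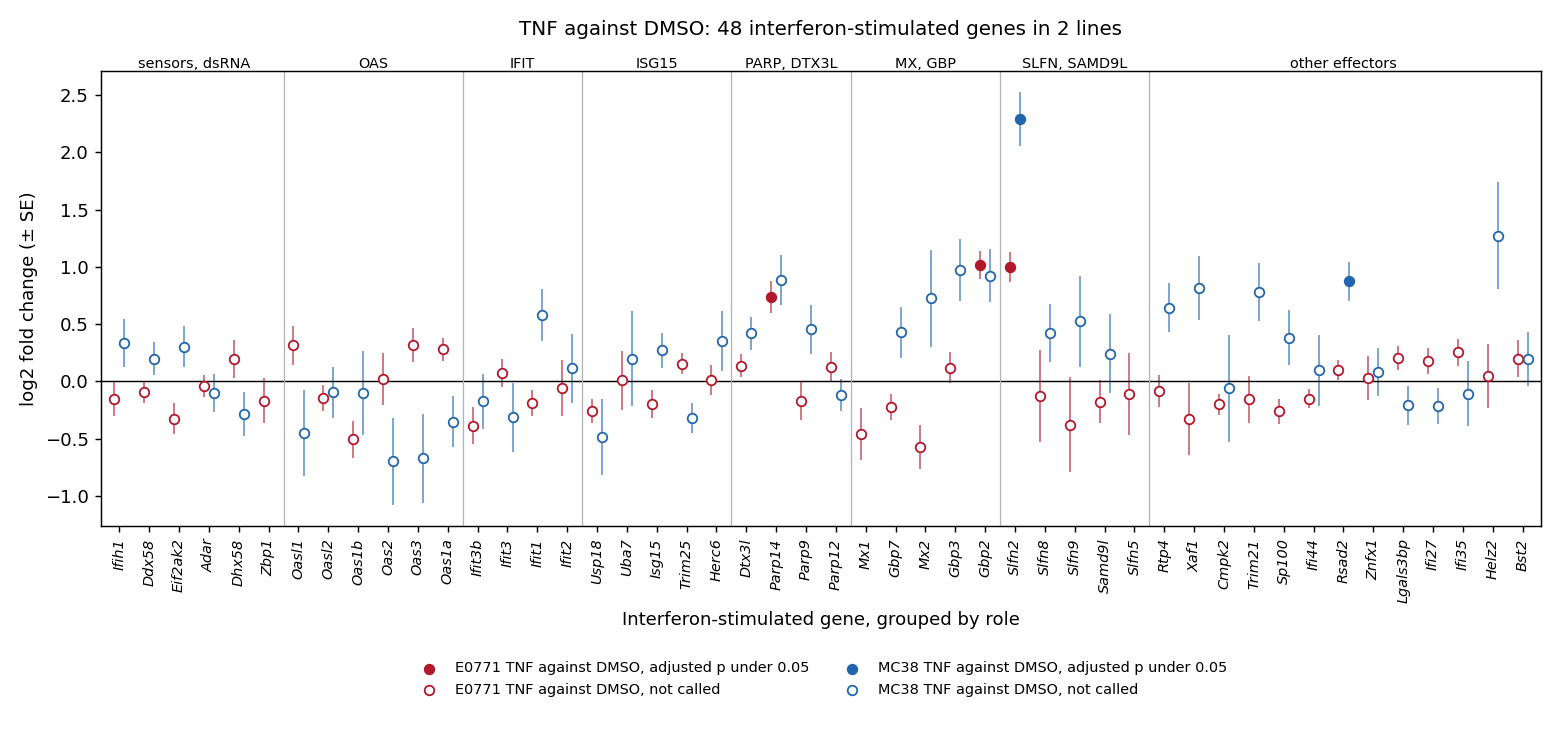
Log2 fold change of each listed gene with TNF against DMSO, with bars for the SE, in E0771 (red) and MC38 (blue), in the same grouping by role. The 3 filled red points are Gbp2, Slfn2 and Parp14 and the 2 filled blue points Slfn2 and Rsad2, while most other genes scatter around 0.

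Adding RG6146 to TNF also lowered a subset of interferon-stimulated genes and raised none to the threshold. Against TNF, the combination had 16 of 48 genes lower in E0771 and none higher, where 16.6% of all genes tested were called and 9.46% were called lower. In MC38 8 of 45 were lower and none higher, where 11.3% were called and 7.60% were called lower. The median log2 fold change of the listed genes was -0.35 in E0771 and -0.44 in MC38, against 0.00 and -0.03 for all genes tested. Without E0771 TNF replicate 2 the count in E0771 was 26, without MC38 combination replicate 2 alone it was 10 in MC38, and without MC38 DMSO replicate 2, TNF replicate 1 and combination replicate 2 together it was 16. Of the 17 genes that RG6146 lowered in E0771, 12 were also lower in the combination than with TNF (70.6% of the 17 and 75.0% of the 16). Over all genes tested the corresponding shares were 75.7% and 54.9%. In each line the groups of these comparisons share no library. Both comparisons came from the same fit of that line's libraries, however, so their calls are not independent. In MC38 5 genes were lower in both comparisons (55.6% of 9 and 62.5% of 8): Dtx3l, Ifit3b, Parp14, Rtp4 and Slfn2. Over all genes the shares were 66.8% and 43.1%.

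Rtp4 had 28.77, 27.25 and 37.47 CPM with the combination in E0771, below all TNF libraries (log2 fold change -1.94 ± 0.15, adjusted p = 1.55e-06). In MC38 it had 12.18, 21.1 and 11.77 CPM (-1.14 ± 0.22, adjusted p = 0.00483), the middle value being the library with leukocyte markers. Slfn2 had 84.59, 73.82 and 84.73 CPM in E0771 (-1.46 ± 0.13, adjusted p = 7.01e-06) and 35.97, 38.75 and 36.86 CPM in MC38 (-1.20 ± 0.22, adjusted p = 0.00404). In E0771 those values lay below DMSO and in MC38 they lay above it. Parp14 had 37.72, 33.69 and 35.21 CPM in E0771 (-1.28 ± 0.14, adjusted p = 3.78e-05) and 10.64, 16.19 and 9.07 CPM in MC38 (-1.21 ± 0.22, adjusted p = 0.00392). Dtx3l had 54.11, 41.97 and 51.97 CPM in E0771 (-1.04 ± 0.11, adjusted p = 1.71e-05) and 28.28, 31.32 and 27.98 CPM in MC38 (-0.71 ± 0.15, adjusted p = 0.00810). Both genes were lower than with TNF in every combination library of both lines. Gbp2, called with TNF in E0771, had 19.05, 19.51 and 22.41 CPM with the combination in E0771 (-0.75 ± 0.12, adjusted p = 0.000822) and 4.62, 5.18 and 5.40 CPM in MC38 (-0.91 ± 0.23, adjusted p = 0.0230), the MC38 call being lost in 5 of 14 settings.

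Among the IFIT genes Ifit1 had 69.73, 68.67 and 74.56 CPM with the combination in E0771 (log2 fold change -0.93 ± 0.12, adjusted p = 0.000121). Ifit3 had 42.11, 38.29 and 42.93 CPM there (-1.18 ± 0.13, adjusted p = 3.66e-05), and Ifit3b 8.19, 9.20 and 12.99 CPM (-0.87 ± 0.18, adjusted p = 0.00393). In E0771 all 3 genes were below every TNF library. In MC38 the combination libraries disagreed: Ifit3 had 5.88, 13.67 and 5.02 CPM and Ifit1 8.68, 17.12 and 9.84 CPM, the high value of each being replicate 2. Neither was called (-0.88 and -0.61, adjusted p = 0.0910 and 0.106), and both were called lower without that library, at -1.49 and -0.99. Ifit3b, with 2.38, 3.18 and 1.93 CPM, was called with it (-1.22 ± 0.26, adjusted p = 0.0101), as was Ifit2 (-1.28 ± 0.32, adjusted p = 0.0224), whose call was lost without that library or without MC38 combination replicate 1. Usp18 was also highest in that library, with 5.18, 11.94 and 4.63 CPM in MC38, while in E0771 it fell from the TNF level to 73.35, 68.11 and 77.57 CPM (-0.54 ± 0.11, adjusted p = 0.00347). The part of the leukocyte markers' source in these MC38 values was not tested.

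Of the sensors and double-stranded RNA enzymes, Ddx58, Dhx58 and Adar fell in E0771 and none in MC38. Ddx58 had 62.87, 66.09 and 57.8 CPM with the combination in E0771 against 86.45, 87.98 and 101 CPM with TNF (log2 fold change -0.52 ± 0.10, adjusted p = 0.00275). In MC38 it had 48.43, 50.57 and 47.86 CPM against 54.04, 66.73 and 73.73 CPM, separate but not called. Dhx58 had 10.1, 7.18 and 8.10 CPM in E0771 against 11.86, 16.38 and 15.8 CPM (-0.76 ± 0.18, adjusted p = 0.00933). Ifih1 was not called in E0771, with 35.44, 31.48 and 34.64 CPM against 48.13, 35.63 and 60.24 CPM (-0.46, adjusted p = 0.0596), and was called without TNF replicate 2. Eif2ak2 had 42.68, 44 and 48.01 CPM against 65.72, 45.71 and 63.03 CPM in E0771 (-0.34, adjusted p = 0.109) and was likewise called without that library. Oasl1 had 15.43, 13.62 and 16.76 CPM against 27.68, 43.87 and 25.47 CPM (-1.05 ± 0.18, adjusted p = 0.00105). The other calls in E0771 were Oasl2, Trim25 and Gbp3, with log2 fold changes of -0.48, -0.42 and -0.49, and in MC38 Slfn8 (-0.95). The call was lost in 6 of 14 settings for Gbp3 and in 8 of 14 for Slfn8, combination replicate 2 left out among the latter. Isg15 (322.6, 308 and 343.2 CPM), Bst2 (538.8, 552.8 and 656.2 CPM) and Zbp1 (11.62, 13.99 and 11.86 CPM) overlapped their TNF libraries in E0771. Rsad2 did too, at 908, 759.7 and 854.2 CPM.

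**Figure D4:**
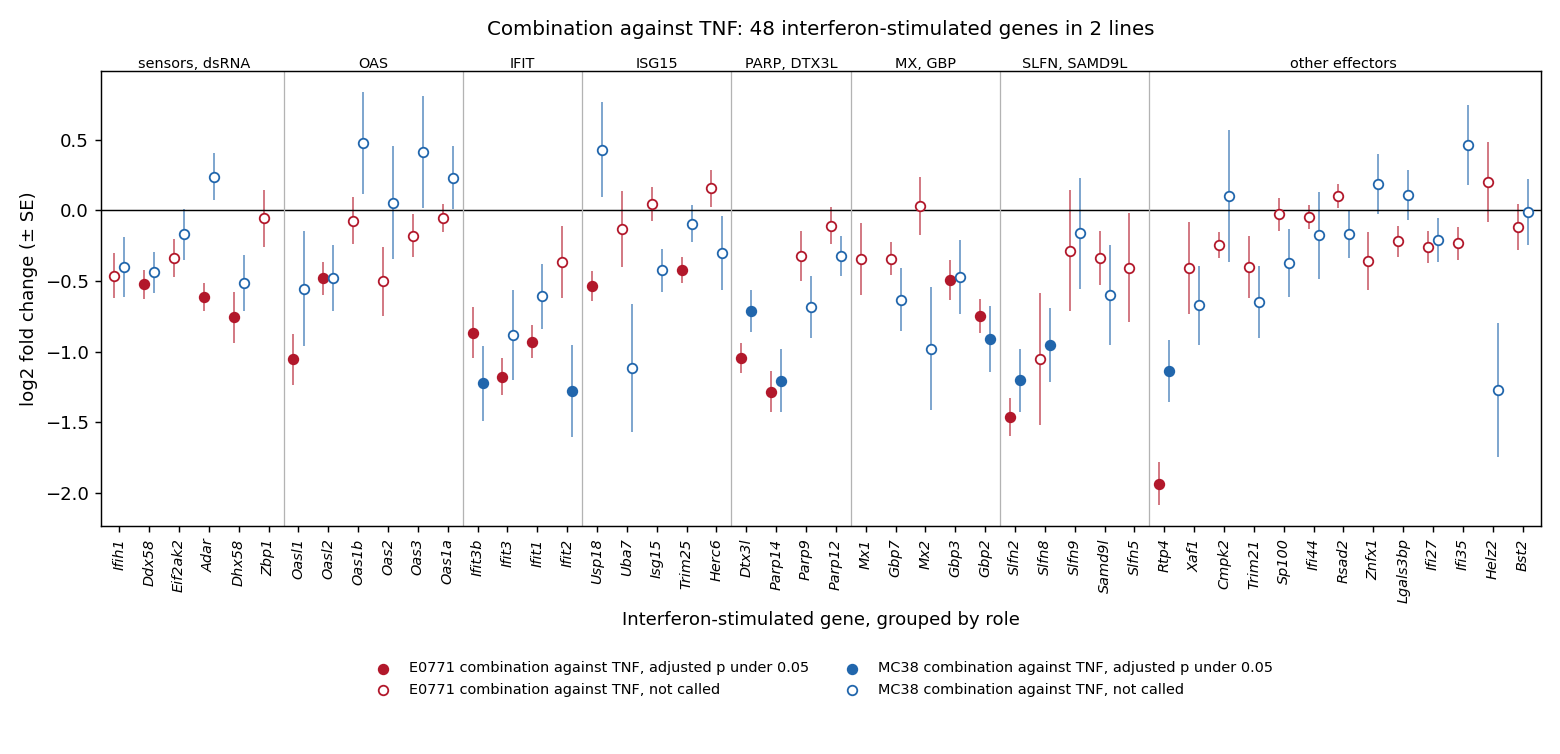
Log2 fold change of each listed gene with the combination against TNF alone, with bars for the SE, in E0771 (red) and MC38 (blue), grouped by role. Filled points were called and all lie below 0, down to -1.94 for Rtp4 in E0771.

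Adding TNF to RG6146 changed almost none of the genes. In E0771 Slfn2 (log2 fold change 1.14 ± 0.14, adjusted p = 0.000314) and Rsad2 (0.43 ± 0.09, adjusted p = 0.0299) were higher with the combination than with RG6146, where 0.734% of all genes tested were called. The Rsad2 call was lost when any of 5 of the 6 libraries of these 2 groups was left out. In MC38 Slfn2 alone was higher (2.66 ± 0.26, adjusted p = 9.04e-05, or 6.33 times the RG6146 level), where 0.294% were called. Slfn2 was thus the one listed gene called in all 4 of these comparisons in both lines, higher with TNF and lower with RG6146. The test of whether TNF and RG6146 together did more or less than the sum of their separate log2 effects found no listed gene in E0771, where 0.0478% of all genes were called. There 4 genes had an unadjusted p under 0.05, and DESeq2 called 0. In MC38 that test called no gene of the whole table, with 2 listed genes under an unadjusted p of 0.05 and DESeq2 again at 0 listed genes.

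**Figure D5:**
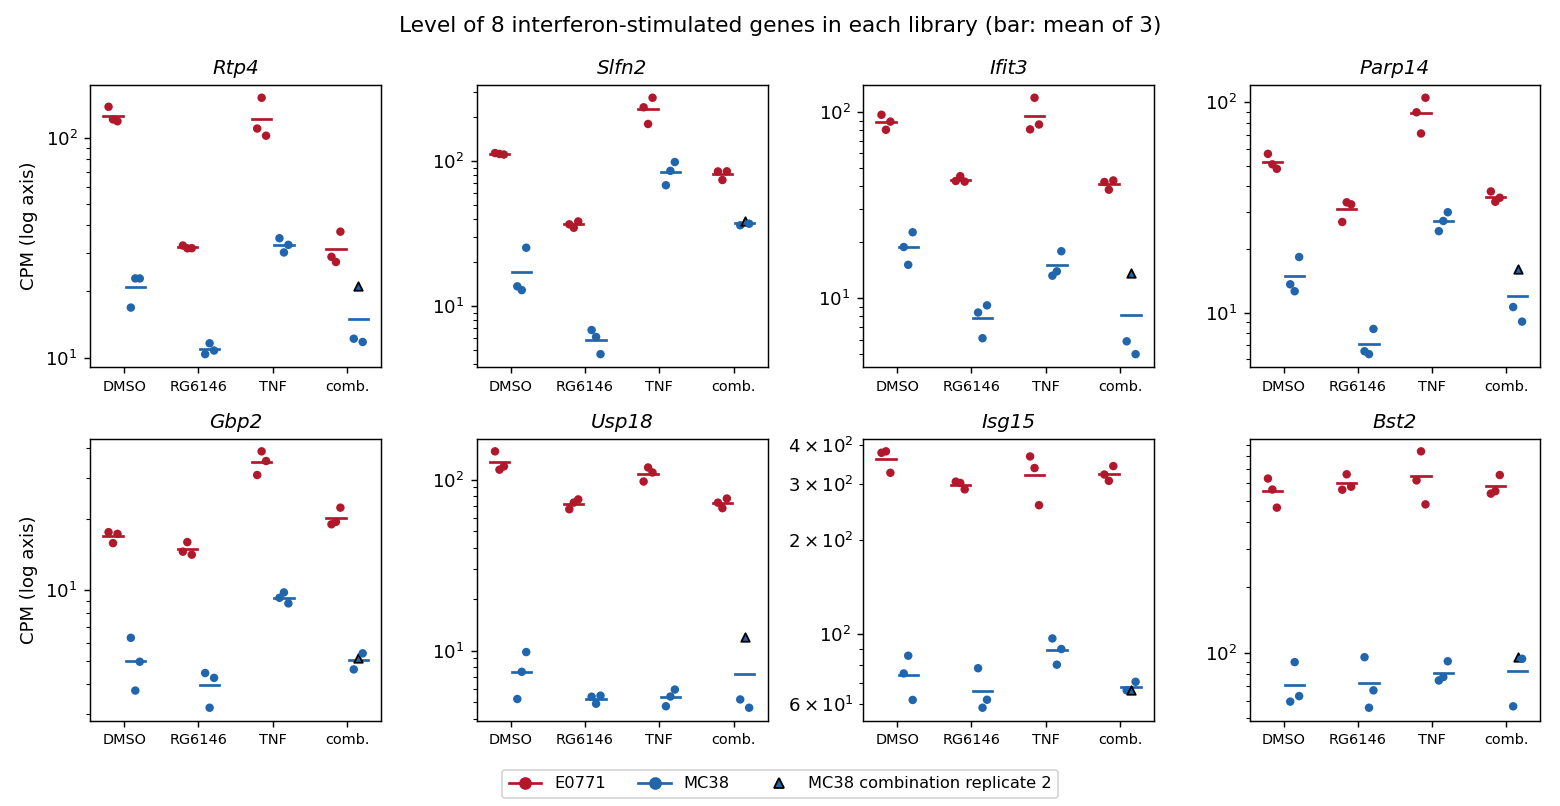
CPM of 8 listed genes in each of the 24 libraries (points, log axis) by treatment, with a dash for each group mean, in E0771 (red) and MC38 (blue). In E0771 Rtp4, Slfn2, Ifit3, Parp14 and Usp18 stand lower in both groups with RG6146, while the groups of Bst2 overlap, and in MC38 the combination library with high Usp18 and Ifit3 is replicate 2.

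The mean log2 level (CPM scale) over the 48 genes was lower in the libraries given RG6146. In E0771 it was 5.71, 5.66 and 5.62 with DMSO, 5.20, 5.22 and 5.18 with RG6146, 5.67, 5.62 and 5.68 with TNF, and 5.24, 5.18 and 5.26 with the combination. In MC38 it was 3.70, 3.61 and 3.93 with DMSO, 3.37, 3.29 and 3.38 with RG6146, 3.86, 3.93 and 4.04 with TNF, and 3.48, 3.82 and 3.51 with the combination. Every library given RG6146 lay below every library of its line not given it, with the exception of MC38 combination replicate 2, which lay within the DMSO range. In bulk samples such as these, fewer cells expressing a gene and less RNA per cell cannot be told apart.

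Whether the 2 lines responded differently was tested in one fit of all 24 libraries. For RG6146 no listed gene differed between the lines, where 0.384% of all genes did, with 9 listed genes at an unadjusted p under 0.05 and 1 called by DESeq2. That gene was Rtp4, with a difference of -1.05 on the log2 scale (E0771 minus MC38, adjusted p = 0.0868 with edgeR). Without the 3 libraries that stand apart and MC38 TNF replicate 1, edgeR called 2 genes, Rtp4 (-1.12) and Samd9l (1.11). For TNF 1 gene differed, Slfn2, whose log2 response was smaller in E0771 (-1.26 ± 0.27, adjusted p = 0.0460), where 0.206% of all genes were called. That call was lost in 10 of 18 alternative settings, among them the fits without E0771 TNF replicate 2 and without MC38 DMSO replicate 2. For the combination against TNF 1 gene differed, Adar (-0.92 ± 0.20, adjusted p = 0.0200), where 2.28% of all genes were called. Adar had 87.81, 111.6 and 97.99 CPM with TNF and 64.59, 59.09 and 65.71 CPM with the combination in E0771, and 27.73, 34.04 and 34.89 CPM with TNF and 40.59, 40.74 and 35.13 CPM with the combination in MC38. It thus fell in E0771 and lay slightly higher in MC38, where it was not called. The call of the difference was lost in 5 of 18 settings, without MC38 combination replicate 2 among them, where Ifi44 was called (0.73). The exon that overlaps Adar on the opposite strand belongs to Chrnb2.

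The genes that signal to interferon-stimulated genes were read from a list of 54: 21 interferons, 6 receptor genes, 3 receptor kinases, 9 STAT and IRF factors, 9 genes of signalling above interferon, and 6 inhibitors. The interferons were hardly detected. Of the 21, 16 had no count in any of the 12 E0771 libraries and 18 none in any MC38 library. Ifnb1 had 10 counts over all E0771 libraries and 0 in MC38, and no interferon gene had enough counts to be tested. In E0771 32 of the 54 genes were tested and in MC38 30. Calls among these genes were not refitted under the alternative settings, so whether they hold with a library left out is not known.

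Several of the factors also differed between the lines with DMSO. Irf7, the factor that amplifies interferon production, had 73.34, 68.35 and 74.86 CPM in E0771 and 4.13, 3.76 and 3.17 CPM in MC38. It was higher in E0771, with a log2 fold change of 4.29. In all, 13 of the 32 tested genes of the list were higher in E0771 and 8 were lower, beside 28.9% and 29.9% of all genes. Of the receptor genes 4 of the 5 tested were lower in E0771: Ifnar1, Ifnar2, Ifngr1 and Il10rb, with log2 fold changes of -0.93, -1.05, -0.37 and -1.57.

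With RG6146, 8 of the 32 fell and 1 rose in E0771, and 4 of 30 fell and 3 rose in MC38. Of all genes tested 6.86% were called lower and 3.96% higher in E0771, and 4.91% and 3.37% in MC38. Irf9, the DNA-binding part of ISGF3, fell in both lines. It went from 100.3, 87.96 and 85.75 CPM to 45.36, 54.47 and 44.61 CPM in E0771 (log2 fold change -0.91 ± 0.11, adjusted p = 0.000121) and from 39.7, 43.6 and 53.55 CPM to 28.85, 25.05 and 33.75 CPM in MC38 (-0.67 ± 0.17, adjusted p = 0.0262). Stat2, which encodes another part of ISGF3, rose in MC38, from 12.58, 11.47 and 25.79 CPM to 37.51, 31.53 and 39.2 CPM (1.10 ± 0.26, adjusted p = 0.0175), with no call in E0771. Tlr3, the endosomal sensor of double-stranded RNA, fell in both lines (-0.92 ± 0.15 and -1.07 ± 0.19). In E0771 the DNA sensor gene Mb21d1 (cGAS), its adaptor Tmem173 (STING), Traf3, Irf2, Irf8 and the receptor gene Ifnar2 fell as well, by 0.73, 0.73, 0.38, 0.81, 1.04 and 0.59 on the log2 scale. In MC38 Irf5 (-1.35) and the receptor gene Il10rb (-0.86) fell. The phosphatase gene Ptpn1, which restrains JAK signalling, rose in both lines (0.32 and 0.52), and Ptpn2 rose in MC38 (0.90).

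With TNF 5 of the 32 rose in E0771 and 4 of 30 in MC38, and none fell, beside 1.88% and 1.02% of all genes called higher. Irf1, a factor that binds ISRE-like elements and is a known target of NF-kB, rose most. It went from 117.4, 115.8 and 122.5 CPM to 757.1, 944.3 and 737.6 CPM in E0771 (log2 fold change 2.75 ± 0.10, adjusted p = 7.46e-10) and from 256.4, 243.2 and 161.7 CPM to 1030, 750.7 and 881.3 CPM in MC38 (2.02 ± 0.21, adjusted p = 0.00012). With the combination it had 526.6, 486.5 and 458.3 CPM in E0771, lower than with TNF alone (-0.69 ± 0.09, adjusted p = 0.000185), and 527.4, 677.1 and 724.3 CPM in MC38, where the difference from TNF was not called. The interferon gamma receptor genes Ifngr1 and Ifngr2 rose in both lines (0.65 and 1.14 in E0771, 0.91 and 1.53 in MC38). Ifnar2 and the kinase gene Ikbke rose in E0771 (0.68 and 2.04), and Ptpn2 in MC38 (0.86). Ifnar1 was not called with TNF or RG6146 in either line. Against TNF, the combination had 10 of the 32 lower and 1 higher in E0771, and 7 of 30 lower and 1 higher in MC38. Of all genes 9.46% were called lower and 7.12% higher in E0771, and 7.60% and 3.70% in MC38. Irf9 was among the lower genes in E0771 (-1.11 ± 0.11, adjusted p = 1.53e-05), and the inhibitor gene Socs1 was the 1 higher (0.96 ± 0.30, adjusted p = 0.0436).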

How the data were processed

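Poly(A)-primed 3′ libraries (QuantSeq, 500 ng RNA, single-end 75 bp reads) of 24 samples were analysed. The authors deposited 1 table of counts per gene, made with HISAT2 2.1.0 on mm10 and featureCounts of Subread 1.5.2 after cutadapt 1.14, per the submitters' processing notes. Neither annotation release nor strand setting is given in the sources used here. Genes were named through the GENCODE vM21 annotation (42462 of 43629 matched), and promoters were taken from RefSeq on GRCm38.p6.

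Each line's 12 libraries in 4 groups were fitted with edgeR 4.0.16 (filterByExpr, TMM, quasi-likelihood F test, two-sided, Benjamini-Hochberg over all tested genes, called under 0.05). Differences between lines came from a fit of all 24. SE is the log2 fold change divided by the square root of F. CPM used TMM factors over all 24. DESeq2 1.42.0 was an alternative. The scripts were tested on simulated counts. Alternatives were other scalings, no filter on low counts, DESeq2, replicate number as a block, all 24 libraries, the 6 libraries compared, and leaving out libraries. No batch is labelled.

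The listed genes, role groups and pathway lists were chosen with earlier results of these data known. Values for every library are given for up to 5 called genes of smallest p in each comparison with DMSO or of the combination with TNF, provided their mean count reached 10, and for 12 further genes whatever their result. Other genes named by a count of 5 or fewer, or for a library that stands apart, were chosen after their values were seen. Reads are not molecules counted by unique identifiers, so the floor of 3 counts covers counting error only.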

Additional observations from a re-analysis of the deposited data

Results flagged for a closer look

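Responses that differed between the lines by a test of the difference itself are listed here. Slfn2 rose less with TNF in E0771 than in MC38 (difference -1.258 on the log2 scale, E0771 minus MC38, edgeR adjusted p = 0.0460, 3 against 3 libraries in each line, all TNF libraries above all DMSO libraries in both lines). That call was lost in 10 of 18 alternative settings, with adjusted p up to 0.157. Its DMSO level was higher in E0771, at 112 ± 1 CPM against 17.2 ± 6.9 CPM (SD, n = 3). Adar responded differently to RG6146 added to TNF (difference -0.9215, adjusted p = 0.0200), with all 3 combination libraries below all TNF libraries in E0771 and all 3 above all TNF libraries in MC38. That call was lost in 5 of 18 settings, with adjusted p up to 0.101. No cause of either difference was tested.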

How the results depend on the processing

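Counts are of listed genes called, and the libraries that stand apart are E0771 TNF replicate 2 and MC38 DMSO replicate 2, TNF replicate 1 and combination replicate 2, left out together. In E0771 RG6146 lowered 17, and 27 without the libraries that stand apart or 28 with only the 6 libraries compared. The E0771 combination lowered 16 against TNF, 26 without the libraries that stand apart, and 14 to 26 with 1 library left out, 26 being without TNF replicate 2. Against RG6146, the E0771 combination had 2 genes, and 1 with library totals alone, with all 24 libraries, and with 1 to 2 on leaving out 1 library. In MC38 RG6146 lowered 9, 15 without the libraries that stand apart or with all 24 libraries, and 2 to 11 with 1 library left out: 5, 2 and 4 without RG6146 replicates 1, 2 and 3. MC38 TNF raised 2, and 6 without the filter on low counts, 5 with DESeq2 or all 24 libraries, 1 without the libraries that stand apart or with only the 6 compared, and 1 to 2 with 1 library left out. The MC38 combination lowered 8 against TNF and 16 without the libraries that stand apart, and raised 1 against RG6146, or 2 without the filter, with DESeq2, all 24 or only 6 libraries.

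The difference between lines in the RG6146 response had 0 genes, 1 without the filter or with DESeq2 and 2 without the libraries that stand apart. That in the TNF response had 1, and 0 with DESeq2 size factors or without the libraries that stand apart, 4 without the filter, 3 with DESeq2, and 0 to 3 with 1 library left out. That in the combination against TNF had 1, and 5 without the filter, 2 with DESeq2, and 0 to 3 with 1 library left out. The causes of these shifts were not tested.

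With the replicate block, the count was 1 for MC38 TNF against DMSO and 1 for the E0771 combination against RG6146, and within 1.5 times elsewhere. The labels do not tie the numbers to shared cultures, same-numbered libraries correlated at -0.177 to 0.137 in E0771 and -0.340 to 0.237 in MC38, and 0 of 12 libraries in either line correlated best with their own number in all other groups. Of 1746 refits of single gene values, 105 lost a call, 31 gained one and 0 reversed a called direction. Low counts limit Slfn5, Mx1, Zbp1, Oasl1 and Usp18 in MC38, and other genes as well. Mx2, Uba7, Oas2, Oas1b, Oas3, Gbp2, Helz2, Gbp3, Trim21, Ifit3b and Cmpk2 had MC38 DMSO means of 1.38 to 6.97 CPM, below the 7.51 CPM of Usp18.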
